A study of Mus musculus with 10 samples.

Results

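CpGs whose cytosines were both read were analysed for strand asymmetry, the methylation level of the plus strand minus that of the minus strand of the same CpG. Members were all autosomal CpGs with at least 10 reads on each strand in all 10 samples. These were 244522 of the 2031922 autosomal CpGs seen in any sample, and 871407 CpGs reached 10 reads on at least 1 strand in all samples. The samples were spermatozoal DNA of C57Bl/6 mice, measured by reduced representation bisulfite sequencing (RRBS), in which DNA is cut with MspI at CCGG, short fragments are selected, and bisulfite turns unmethylated cytosines into bases that are read as thymine.

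In the P-generation, 2 vehicle-control males (C8 and C14) had been injected with 7.5% DMSO in PBS, and 3 decitabine treated males (D10, D11 and D13) with 0.1 µg/g of decitabine in that vehicle. Injections were given 3 times per week for 7 weeks and began at an age of 7 weeks. The F3-generation comprised 2 descendants of vehicle-control males (F3C9 and F3C30) and 3 descendants of decitabine treated males (F3D1, F3D7 and F3D31), none of which was injected. F3D1 and F3D31 both descend from D10 and F3D7 from D11, so the 3 are not independent lines, and F3C9 and F3C30 descend from C8 and C14. Each sample was the sperm of 1 animal, and its levels are averages over the sperm of that animal.

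A CpG reads the same on both strands, so that its methylation can be copied when DNA is replicated. UHRF1 recognises the hemimethylated CpG that replication leaves behind, and the maintenance methyltransferase DNMT1 then methylates the new strand. Decitabine is a cytidine analogue that is built into DNA and traps DNA methyltransferases, so CpGs may be left methylated on the old strand only. Male germ cells gain most of their methylation before they enter meiosis, and mature sperm no longer replicate their DNA. In a pool of sperm, hemimethylation shows as asymmetry between the reads of both strands only where a given strand is unmethylated in more cells. A strand difference in the reads need not come from the cells, and the source of the differences below was not tested. Hemimethylation that falls on either strand at random cannot be seen in these counts.

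Of the members, 54229 (22.2%) lay in the MspI site itself and 190293 (77.8%) inside MspI fragments. A site CpG has a fragment on each side. For each of these fragments, one strand is the start strand, whose reads begin in the site, and the opposite one is the end strand, on which a read across the whole fragment would end in the site. CpGs inside fragments were read up to base 51 of the read, and 51 members lay farther from the fragment end on a strand, so 51 bases were taken as the read length. In a fragment of 51 or 52 bases the cytosine of the end strand is read base 50 or 51, the last bases of the read.

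The sequences of CpGs with the largest strand differences among those with at least 20 reads per strand in each sample are shown first, since their fragment lengths recur in all that follows. They are plus-strand sequences of GRCm38 (mm10), and capitals mark the CpG whose strands differed. In the first pair the plus strand was methylated, and a fragment of 51 bases lay to the right of the site. The first was intergenic at chr7:127158660-127158712, 20838 bp upstream of Spn (sialophorin, a leukocyte surface protein). The second was in a coding exon of Hk2 (hexokinase, the first step of glycolysis) at chr6:82732107-82732159.
Spn upstream: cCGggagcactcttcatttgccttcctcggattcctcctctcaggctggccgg
Hk2 exon: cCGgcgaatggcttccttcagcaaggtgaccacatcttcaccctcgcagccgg
In the second pair the minus strand was methylated, and a fragment of 52 bases lay to the left. One was in an intron of Oma1 (a protease of the inner mitochondrial membrane) at chr4:103363511-103363564, the other in a coding exon of Herc1 (a giant ubiquitin ligase) at chr9:66372211-66372264.
Oma1 intron: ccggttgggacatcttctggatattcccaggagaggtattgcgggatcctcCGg
Herc1 exon: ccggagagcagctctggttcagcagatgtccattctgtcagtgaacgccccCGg
The exception among the 16 largest differences had a fragment of 48 bases to the right, at chr1:170947978-170948027, nearest to the start of Fcgr2b (an inhibitory Fc receptor).
Fcgr2b region: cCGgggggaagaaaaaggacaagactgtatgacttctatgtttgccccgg
The next 4 are the CpGs inside fragments with the largest differences by the same conditions, 3 in intergenic sequence marked as repetitive in the reference, at chr9:109310020-109310073, chr5:93381906-93381989 and chr6:102667054-102667083 (30 bases around the CpG), and 1 in the noncoding genes Gm42418 and CT010467.1 at chr17:39848405-39848473.
Chromosome 9: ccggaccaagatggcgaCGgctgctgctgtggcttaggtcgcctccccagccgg
Chromosome 5: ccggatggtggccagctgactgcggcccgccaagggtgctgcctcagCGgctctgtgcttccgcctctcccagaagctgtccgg
Chromosome 6: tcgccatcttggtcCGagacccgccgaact
Chromosome 17: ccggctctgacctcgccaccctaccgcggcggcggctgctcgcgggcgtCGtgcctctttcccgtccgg

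Coverage summed over all cytosines was between 48903817 and 115158278 in the samples, where a read counts once for each CpG cytosine it covers. The median coverage of members per strand was between 35 reads in D13 and 102 reads in F3D1. At 10 reads, the 95% Wilson interval of a level of 50% ran from 23.7% to 76.3%, which covers counting error only. The vehicle-control animal C8 stood apart from the other samples in the spread between strands, and the P-generation differences in spread and discordance are given with and without it. Imprinted genes were examined as a check of the tissue, with members within 5000 bp of the gene start. Near the genes whose control regions are methylated in sperm, the levels were 12.8% at H19 (1 member), 13.3% at Rasgrf1 (9 members) and 21.5% at Meg3 (1 member), so high levels were not found there. Near genes unmethylated in sperm, the levels were between 1.28% at Grb10 (25 members) and 17.5% at Mcts2 (3 members), with the exception of Mest, where 2 members had 91.2%. Snrpn and Peg10 had 0 members. Whether these members lie in the control regions was not tested.

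Most members were methylated alike on both strands. The mean strand difference over all members was between -0.0207 and 0.0254 percentage points in the 10 samples, and 92.4% of members had a mean difference under 5 points. A shared strand difference was called at a q-value under 0.01 (quasi-binomial logistic model with a term for each sample, F test, Benjamini-Hochberg over all members) and a mean difference of at least 25 points. It was found at 3050 members, 1.25% of those tested. The plus strand was higher at 1538 (0.629%) and the minus strand at 1512 (0.618%). Of the 3050, 3025 had the same direction in all 10 samples.

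Most called CpGs combined a strand read as methylated with a strand read as unmethylated. Their higher strand had a median level of 93.2% and their lower strand of 3.79%, and 1874 had one strand at 80% or more and the other at 20% or less. When the reads of both strands were merged, as is usual for RRBS, their median level was 48.5%. Of the 6275 members with a merged level between 20% and 80% in all 10 samples, 36.9% were CpGs with a shared strand difference. This is a description, since a large strand difference sets a merged level away from 0% and 100%.

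**Figure D1:**
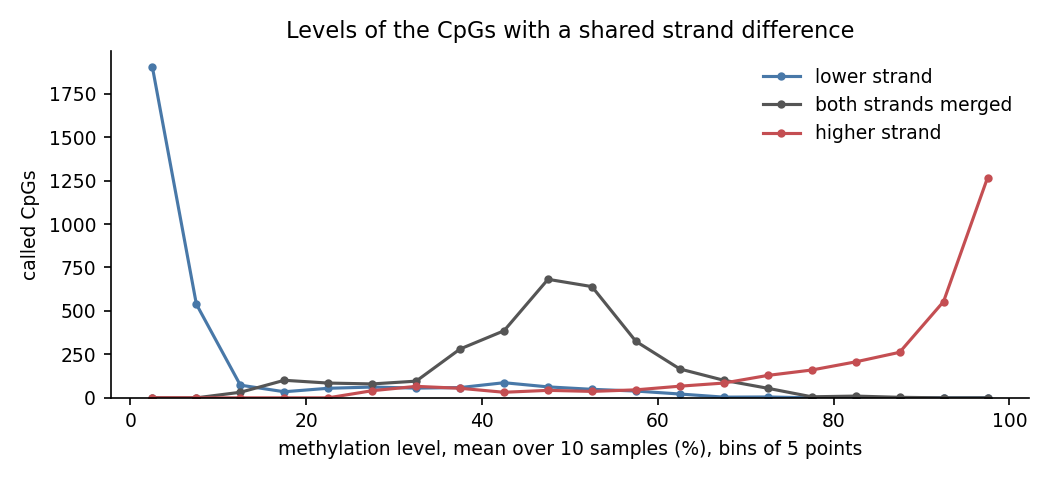
Number of called CpGs (vertical axis) by methylation level in bins of 5 percentage points (horizontal axis), for the lower strand, the higher strand and both strands merged, each a mean over 10 samples. The lower strand peaks below 5% with 1902 CpGs, the higher strand above 95% with 1266, and the merged level near 50%.

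Nearly all of the asymmetry lay in the MspI site. Of the 3050 called CpGs, 3017 (98.9%) were site CpGs and 33 were inside fragments, so that 5.56% of site CpGs and 0.0173% of CpGs inside fragments were called. The median absolute strand difference was 2.15 points in sites and 0.185 points inside fragments. The excess strand SD is the spread of the strand differences of 1 sample over CpGs after the binomial sampling variance has been taken off. Over site CpGs it exceeded that over CpGs inside fragments by 15.8 ± 0.835 points (SD, n = 10), in 10 of 10 samples (exact sign-flip permutation test, two-sided, p = 0.00195, the smallest value possible). Without the sites of 51- and 52-base fragments described next, the excess was 3.60 ± 1.23 points, again in 10 of 10 samples. Sites and CpGs inside fragments were not matched for methylation level, and the part of the level in this excess was not tested.

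Within the sites, the length of the neighbouring fragment separated the called CpGs from the rest. Of the 7131 sites with a fragment of 51 or 52 bases on 1 side, 2922 (41.0%) were called, and at all 2922 the end strand of that fragment was the lower one. Of the 47066 sites with neither neighbour of 51 or 52 bases, 90 (0.191%) were called. Lengths next to these had few or no calls. At 51 bases 42.4% of 3587 sites and at 52 bases 39.5% of 3544 were called with a lower end strand, against 0.751% of 1332 at 50 bases and 0 of 1198 at 53 bases. Over the 39 other lengths from 30 to 70 bases the share was at most 1.13%, at 47 bases. This split by length was chosen after the values had been seen.

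**Figure D2:**
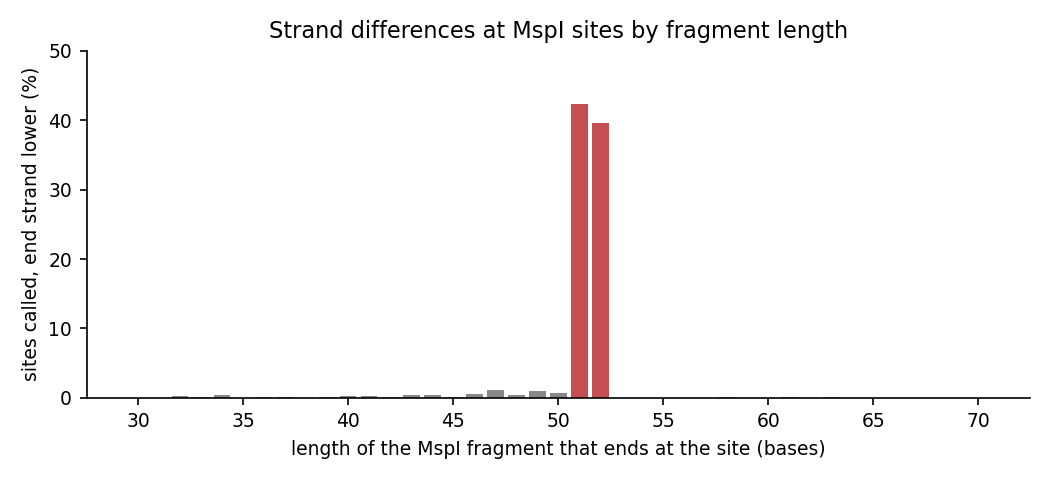
Percent of MspI-site CpGs called with the end strand lower (vertical axis, from 0) by the length in bases of the fragment that ends at the site (horizontal axis). The bars at 51 and 52 bases (red) reach 42.4% and 39.5%, and no other length from 30 to 70 bases exceeds 1.13%.

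The difference was of similar size in every animal. Over all 7131 sites, methylated or not, the end strand minus the start strand was -34.3 points in C8, -34.1 in C14, -33.8 in D10, -33.5 in D11 and -33.3 in D13. In the F3-generation, F3C9 had -33.7 points, F3C30 -33.9, F3D1 -35.0, F3D7 -33.8 and F3D31 -34.7. At 4965 sites of fragments of 49, 50, 53 or 54 bases, the same difference was between -1.21 and -0.312 points. The 51- and 52-base sites differed from these by -33.2 ± 0.456 points (SD, n = 10, exact sign-flip permutation test, two-sided, p = 0.00195, lower in 10 of 10 samples). The lengths were chosen from these same data, so the p-value is not an independent test of them. At the 51- and 52-base sites, decitabine minus vehicle was 0.67 points in the P-generation (exact permutation test, two-sided, p = 0.1, the smallest value possible). The groups did not overlap there. In the F3-generation it was -0.708 points, in the opposite direction (p = 0.3, exact permutation test). Across samples, the strand differences of these sites correlated with a median r of 0.973 over the 45 pairs of samples. The median r was 0.166 at the other sites and 0.0493 inside fragments, over CpGs that share their libraries, and is given without a test.

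The size of the difference went with the level of the start strand. Where the start strand had 80% or more, 2210 of 2267 sites (97.5%) were called. At the 3852 sites where it had 20% or less, a lower end strand cannot reach the 25 points of a call. The end strand was lower there too. The start strand averaged 4.45 ± 0.581% and the end strand 1.73 ± 0.299% (SD, n = 10), lower in 10 of 10 samples (exact sign-flip permutation test, p = 0.00195). These sites, too, rest on lengths chosen after the values had been seen. For comparison, 6253 sites without a 51- or 52-base neighbour and with 80% or more on the plus strand had a median of 95.2% on that strand and 95.1% on the minus strand.

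The level of the end strand followed the length of the fragment on the other side of the site, which supplies reads that begin in the site on that same strand. With more than 280 bases on the other side, above the upper limit of the insert sizes selected for these libraries, the median end strand of 1563 methylated sites was 3.34% and the start strand 96.0%. With 53 to 100 bases, the end strand of 127 sites had 52.1% and the start strand 96.2%. The end strand then also held more reads, with a median of 2.07 times those of the start strand against 0.986 times for the longest class. With under 28 bases the end strand returned to 4.50% (89 sites), with 28 to 50 bases it was 34.2% (102 sites), with 101 to 150 bases 42.1% (149 sites), and with 151 to 280 bases 16.9% (237 sites). In single samples the medians of the end strand ran from 44.7% to 56.1% in the class of 53 to 100 bases and from 0% to 3.57% in the class of over 280 bases, so these classes did not overlap. The end repair of MspI fragments fills their 3′ ends with new cytosines, and the study's trimming was meant to remove 3′ MspI sites. The part of these steps in the difference was not tested.

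**Figure D3:**
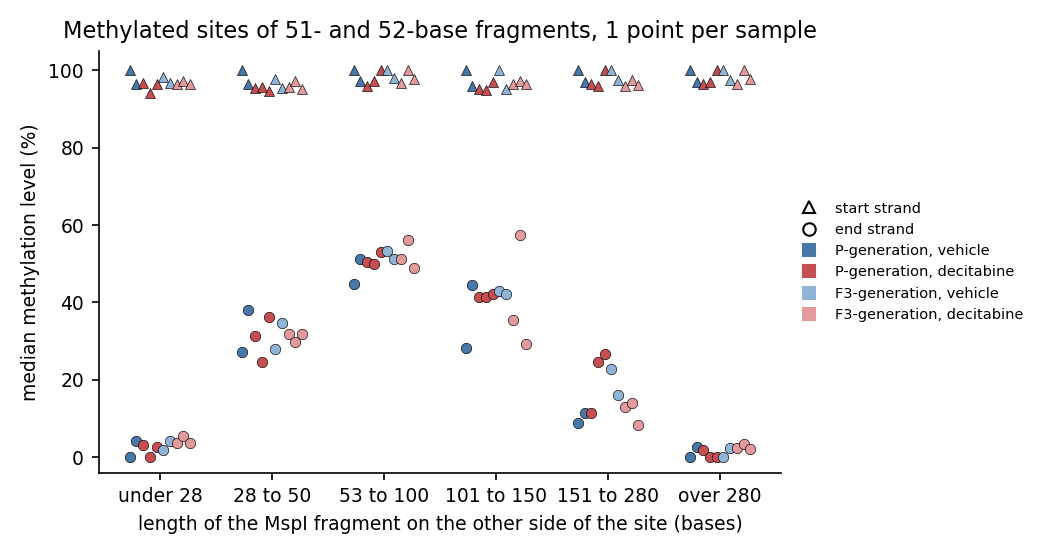
Median methylation level (vertical axis) of the start strand (triangles) and end strand (circles) at sites of 51- and 52-base fragments with a start strand of at least 80%, 1 point per sample and class, by the length of the fragment on the other side (horizontal axis), coloured by group. The start strand stays near 95% to 100%, while the end strand rises from near 0% at under 28 bases to 52.1% over samples at 53 to 100 bases and falls to 3.34% at over 280 bases.

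The CpG in the coding exon of Hk2 shows the pattern. Its plus strand was between 94.5% and 100% with a median of 100%, and its minus strand was at 0% in 9 samples and at 4.17% in F3D7, on 22 to 86 reads per strand. The strands did not overlap in any sample, with a mean difference of 98.1 ± 2.30 points (SD, n = 10, q = 3.04e-07 by the quasi-binomial F test). At the Herc1 exon the order was turned round. The minus strand was at 100% in all 10 samples, and the plus strand was at 0% in 8 samples, at 3.16% in F3D1 and at 8.82% in F3D31. With 52.1% and 50.4%, the merged levels of both CpGs lay near the middle of the scale. Among the 1139 called CpGs that met the conditions for naming, which asked for 20 reads per strand in each sample and 1 direction, the largest difference, upstream of Spn, was 99.6 ± 1.13 points, with 0 methylated reads on the minus strand in any sample. The Oma1 intron had the largest such difference in the opposite direction, -99.3 ± 1.68 points, with the minus strand at 100% in all samples. The remaining named sites were an intron of Golga4 (a golgin of the trans-Golgi network), an intron of Ttll5 (a tubulin glutamylase), coding exons of Mab21l3 and Dytn, and intergenic positions whose nearest coding starts were those of Cand1, Kitl, Mms22l, Syt12, Vstm2b, Sox11 and Sox9. Their absolute differences lay between 97.8 and 99.3 points.

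The site near Fcgr2b had no 51- or 52-base neighbour and still differed by 98.8 ± 3.06 points. Its plus strand was at 90.3% in D13, at 98.0% in F3D31 and at 100% in the other samples, while its minus strand held 0 methylated reads in any sample. The minus strand is the end strand of its 48-base fragment. Of the 90 called sites without a 51- or 52-base neighbour, 81 had a neighbour under 51 bases whose end strand was the lower one, and 22661 sites had a neighbour that short.

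By gene annotation (GENCODE), the share of called CpGs was lowest in promoters, 1000 bp upstream to 500 bp downstream of protein-coding starts. There, 198 of 167916 members (0.118%) were called and the mean methylation level was 2.51%. In coding exons 332 of 18648 (1.78%) were called, in introns 1219 of 28043 (4.35%) and in intergenic sequence 1121 of 21853 (5.13%), where the mean level was 43.7%. Among sites of 51- or 52-base fragments alone the order was similar, with 5.72% called in promoters, 61.0% in coding exons, 66.4% in untranslated regions, 71.2% in introns and 73.8% in intergenic sequence. Mean start-strand levels there were 8.92%, 60.8%, 62.4%, 66.9% and 66.6%. Sequence that the reference marks as repetitive held 18.3% of the called CpGs and 4.60% of the members. These 2 shares were not matched for methylation level or fragment length.

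Site CpGs also differed from CpGs inside fragments in a way that both strands shared. In promoters, which are mostly unmethylated in sperm, 29121 site CpGs without a 51- or 52-base neighbour averaged 6.21 ± 0.495%, and 135591 CpGs inside fragments 1.64 ± 0.0556% (SD, n = 10). The difference of 4.57 ± 0.469 points had the same sign in 10 of 10 samples (exact sign-flip permutation test, p = 0.00195). The sites are the first bases of the reads on both strands, and the part of the read start in this difference was not tested. These sites and CpGs were also not matched for fragment length, CpG density or place in the promoter.

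Inside fragments, strands were compared by the distance from their read start. Over all these CpGs, the strand whose cytosine was nearer to its read start exceeded the other by 0.00650 ± 0.0137 points (SD, n = 10, 7 of 10 samples, exact sign-flip permutation test, two-sided, p = 0.162). With at least 20 reads per strand the difference was 0.0125 points (exact sign-flip permutation test, p = 0.00781). At the 6818 CpGs whose cytosines differed by 40 or more bases in read position it was 0.0763 ± 0.0340 points, between 0.0155 and 0.128 in the 10 samples. In the classes of smaller distance its mean was between 0.00163 points (1 to 9 bases) and 0.00624 points (10 to 19 bases). At the 10073 CpGs whose nearer cytosine was at read bases 2 to 5, a set chosen after the values had been seen, it was 0.237 ± 0.0616 points, positive in 10 of 10 samples. Among the 683 of these CpGs with a mean level of 80% or more it was 0.780 ± 0.346 points, also positive in 10 of 10 samples. The next read bases, 6 to 10, did not show this order. At CpGs of 20% or less, a plus strand read there had 0.541% against 0.565% on the other strand. A minus strand read there had 0.524% against 0.540%. At CpGs of 80% or more the plus strand had 92.85% against 92.96%, and the minus strand 92.73% against 92.73%.

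The 33 called CpGs inside fragments lay in 30 fragments. The plus strand was higher at 14 and the minus strand at 19, and their absolute differences ran from 25.8 to 93.2 points. In the 3 fragments that held a pair of called CpGs, both pointed in the same direction. Of 60 other members in these 30 fragments, 44 differed by less than 10 points.

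At the chromosome 9 CpG, the plus strand ran from 87.2% to 95.7% with a median of 91.8% and the minus strand from 11.4% to 38.6% with a median of 22.4%, on 23 to 264 reads. Its difference was 67.5 ± 10.4 points, with 84.3 in C8 as the highest and 50.7 in F3D1 as the lowest. The chromosome 6 CpG pointed the other way, by -72.4 ± 11.5 points, with the minus strand at 95% or more in every sample and the plus strand between 5.22% in F3D31 and 46.9% in D10. The cytosines of this CpG lie at read bases 51 and 118 of its fragment, so its minus strand was read farther in than a read of 51 bases reaches from that fragment's end. At the chromosome 5 CpG the difference was 41.3 ± 9.01 points, and it was not called with every strand thinned to 10 reads. The strands did not overlap in any of these 3 CpGs, and over both generations together decitabine and vehicle samples lay mixed on both strands. Within the F3-generation, the groups did not overlap on the minus strand of the chromosome 5 and chromosome 6 CpGs. On chromosome 5 the vehicle descendants had 39.5% and 36.8%, and the decitabine descendants 42.7%, 43.7% and 51.5%. On chromosome 6 they had 97.5% and 98.2%, against 96.6%, 95.2% and 97.2%. The printed chromosome 6 sequence shares a run of 16 bases with the opposite strand of the chromosome 9 fragment, and that fragment is identical to the fragment of the named site on chromosome 4 at position 23652401 at 44 of 54 positions. Whether reads of such similar sequences were assigned to one another was not tested.

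The chromosome 17 CpG was read very unevenly, with 4384 to 11941 reads on the plus strand and 33 to 157 on the minus strand. The plus strand had 0.301% to 0.876% methylation and the minus strand 21.4% in F3D31 to 81.9% in C14, with a difference of -56.6 ± 19.8 points. Its merged level was 1.20%. The part of other copies of this sequence in the genome was not tested.

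**Figure D4:**
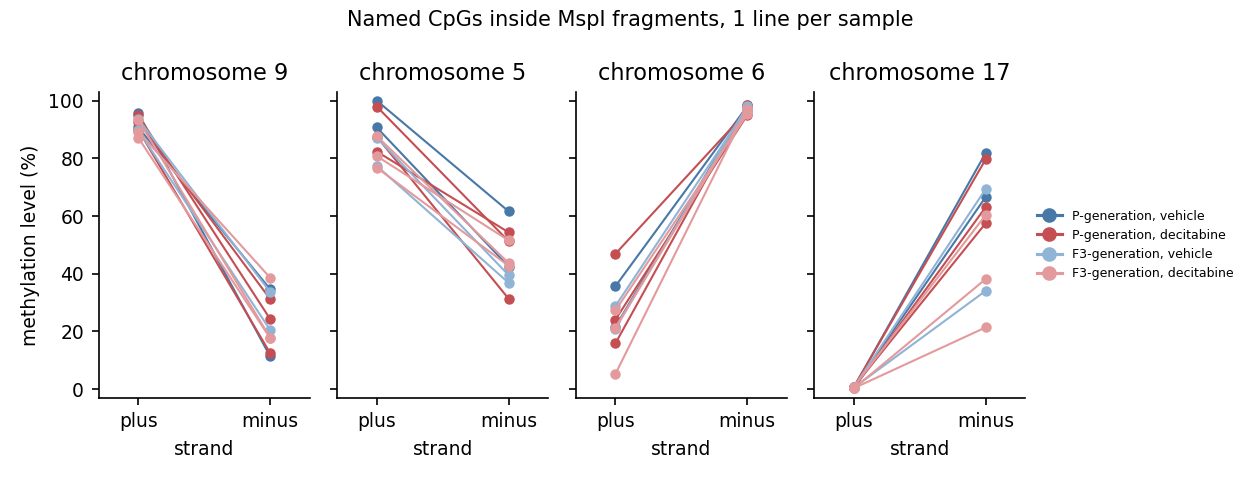
Methylation level (vertical axis) of the plus and minus strand of the 4 named CpGs inside MspI fragments, 1 line per sample, coloured by group. Every line falls on chromosomes 9 and 5 and rises on chromosomes 6 and 17. The colours of the 4 groups are mixed, except for the F3-generation on the minus strand of chromosomes 5 and 6.

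Of the 33 called CpGs inside fragments, 13 lay in annotated genes. The examples that follow were chosen after their values were seen. An intron of Mtus2 (a microtubule-associated protein) held the largest of the 33, 93.2 ± 7.75 points, on a median of 27 reads. A coding exon of Cyp7a1, the rate-limiting enzyme of bile acid synthesis, had 34.2 ± 25.6 points and ranged from 5.51 to 94.3 points between samples. An intron of Rarb, a retinoic acid receptor, had 39.3 ± 15.1 points. A pair of neighbouring CpGs in a coding exon of Fhdc1 (a formin-related protein) had -36.9 and -29.8 points.

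The comparison of decitabine and vehicle asked whether treated males or their descendants showed more strand-discordant methylation. At single CpGs, 0 of 244522 members (0%) had a strand difference that differed between decitabine and vehicle in the P-generation, and 0 (0%) in the F3-generation (quasi-binomial F test, q under 0.01 and 25 points). At an unadjusted p under 0.05 there were 6632 (2.71%) and 7661 (3.13%) members, less than the share of 0.05 that evenly spread p-values would give. limma on the strand differences also called 0 in each generation, and was not tried on simulated group differences. A test without a dispersion term, which leaves out the variation between animals, called 1450 in the P-generation and 547 in the F3-generation, and 15 in the P-generation without C8. The F test has 6 residual degrees of freedom across 244522 CpGs and its lowest q-value was 1 in both generations, so a count of 0 does not show that the groups were alike. In simulated counts of 20000 CpGs it called 0 of 200 group differences of 60 points.

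Over all members, decitabine treated males did not have a larger spread between strands than vehicle-control males. The excess strand SD was 14.4 points in C8 and 9.39 in C14, against 9.91 in D10, 10.4 in D11 and 10.3 in D13, so the vehicle-control animals lay on both sides of the treated ones. The difference was -1.70 points (exact permutation test, two-sided, p = 0.6, where 0.1 is the smallest value possible). Without C8, it was 0.810 points. In the F3-generation the values were 11.1 in F3C9 and 9.75 in F3C30, against 9.68 in F3D1, 9.67 in F3D7 and 10.1 in F3D31. That difference was -0.633 points (p = 0.3, exact permutation test), and 0.0554 without F3C9.

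Inside fragments, where the MspI site plays no part, the order of the samples of the P-generation was the same. The excess strand SD was 9.71 points in C8, 2.41 in C14, and 4.58 ± 0.522 in the decitabine treated males (SD, n = 3). In the F3-generation it was 5.99 in F3C9, 3.40 in F3C30 and 3.37 ± 0.446 in the descendants of decitabine treated males (SD, n = 3). The difference was -1.48 points in the P-generation (exact permutation test, p = 0.7), 2.18 points without C8, and -1.33 points in the F3-generation (p = 0.3, exact permutation test).

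Maintenance methylation acts on methylated CpGs, and 23206 members had a mean level of 80% or more. Maintenance lost on either strand at random would lower both strands alike and would not widen the spread between them. There, the plus strand averaged 91.9% in C8 and 93.8% in C14, and 92.2 ± 0.618% in the decitabine treated males (SD, n = 3). The excess strand SD was 17.5 points in C8, 3.92 in C14, 7.20 in D10, 8.89 in D11 and 8.61 in D13. The treated males were all above C14 and all below C8, with a difference of -2.48 points (exact permutation test, p = 0.7), and of 4.32 points without C8, against the 1 vehicle-control animal that is left. In the F3-generation the difference was -2.24 points (p = 0.2, exact permutation test), with 10.3 in F3C9, 6.06 in F3C30 and 5.12 to 6.77 in the descendants of decitabine treated males. It was -0.103 points without F3C9 and -4.38 points without F3C30.

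**Figure D5:**
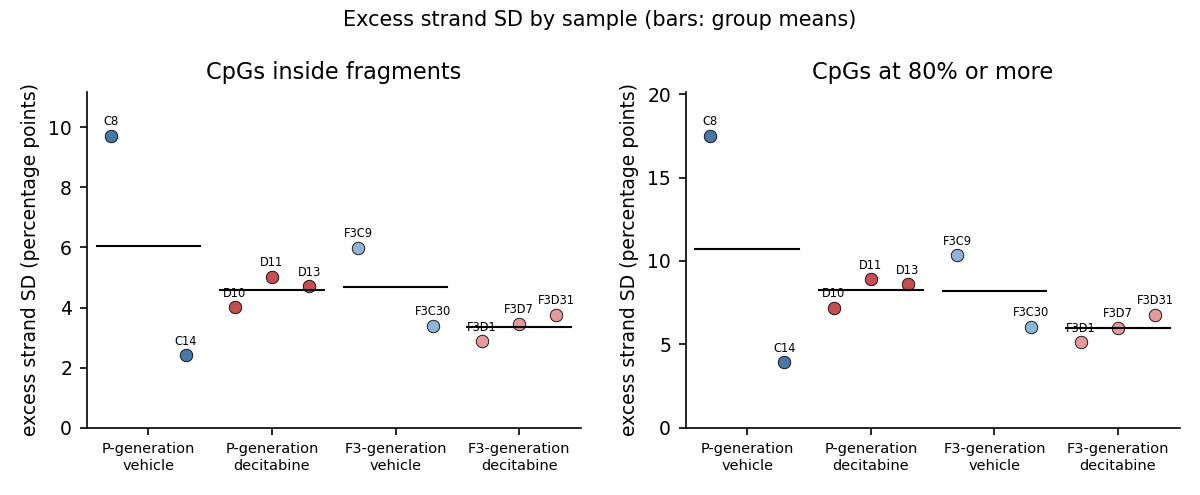
Excess strand SD in percentage points (vertical axis) of each sample by group (horizontal axis), for CpGs inside fragments (left) and CpGs with a mean level of at least 80% (right), with bars at the group means. C8 is the highest sample in both panels (9.71 and 17.5 points) and C14 the lowest (2.41 and 3.92 points), with the decitabine treated males between them.

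Fully discordant CpGs, with one strand at 80% or more and the other at 20% or less, made up 0.899% of members in C8 and 0.815% in C14, against 0.735% in D10, 0.711% in D11 and 0.726% in D13. The decitabine treated males thus had the lower share and the groups did not overlap. The difference was -0.133 percentage points at p = 0.1, the smallest value the exact permutation test allows for 3 against 2 animals. Without C8 it was -0.0909 points, with at least 20 reads per strand -0.0720 points, and with every strand thinned to 10 reads -0.234 points. In the F3-generation the share was 0.737% in F3C9, 0.795% in F3C30 and 0.810 ± 0.0203% in the descendants of decitabine treated males (SD, n = 3), a difference of 0.0435 points (p = 0.3, exact permutation test). It was 0.0145 points without F3C9 and 0.0725 points without F3C30.

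These shares rested on the sites of 51- and 52-base fragments. Without them, the share was 0.0177% in C14 and 0.0147% to 0.0206% in the decitabine treated males, which overlap, and 0.215% in C8. The difference in the F3-generation was then -0.00358 points. Inside fragments, 252 CpGs were discordant in C8, 2 in C14, and 3, 10 and 8 in D10, D11 and D13. In the F3-generation there were 19 in F3C9, 1 in F3C30, and 1, 4 and 5 in F3D1, F3D7 and F3D31. By these counts the decitabine treated males all lay above C14 and below C8, the vehicle-control animal that stood apart. The descendants of decitabine treated males had no fewer than F3C30 and fewer than F3C9.

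The 252 discordant CpGs of C8 lay in 206 fragments on all 19 autosomes, 120 with the plus strand higher and 132 with the minus strand higher, on a median of 28 reads. At these CpGs the median absolute strand difference was 82.7 points in C8 and 9.38 points in the other 9 samples, and 20 of them reached 50 points in another sample. C8 had the fewest cytosines of the 10 samples, 1663949 against 1734533 in the next, F3D7. Its median coverage of members was 43 reads per strand, within the range of the other samples. The number of different DNA molecules behind the reads is not known from counts, and its part in the spread of C8 was not tested.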

How the data were processed

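RRBS of spermatozoal DNA was analysed in 10 animals of 4 groups, assigned by their names in the labels. Per the paper and the submitters' processing notes, the authors used CASAVA 1.8.2, Trim Galore 0.3.3 with cutadapt 1.1 (adapters and 3′ MspI sites removed) and Bismark 0.10.1 on mm10, and deposited methylated and unmethylated read counts per CpG cytosine and strand, neither filtered nor normalized. Strands were paired and MspI sites located in GRCm38. Members and lists were chosen with earlier results of these data known.

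Counts were fitted per CpG by logistic regression with sample and strand terms (9 residual degrees of freedom for the shared difference, 6 for groups, dispersion at least 1). Per-sample values were compared by exact permutation tests. Named CpGs were the 8 largest differences per direction with 20 reads per strand in each sample and 1 sign, at most 1 within 1000 bp and none on chromosome 18, and the 2 largest per direction in sites and inside fragments. The group part of the rule named none. Computations ran in Python 3.11.15 (numpy 2.4.6, scipy 1.17.1) and, for limma 3.58.1, in R 4.3.3. The fits were tested on simulated data. There, the shared test called every simulated strand difference (40 points), and the group test none of the simulated group differences (60 points). Alternatives were other coverage limits, thresholds, thinning to 10 reads, limma, no dispersion term, and leaving out sites or samples.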

Additional observations from a re-analysis of the deposited data

Results flagged for a closer look

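The vehicle-control animal C8 lay apart from the other 9 samples by Dixon's criterion over all 10 samples, which spans 4 groups and marks about 1 in 20 sets by chance. This held for the excess strand SD over all members (14.4 points), over MspI-site CpGs (24.6 points), inside fragments (9.71 points) and at CpGs of 80% or more (17.5 points), and for the share of CpGs inside fragments that were fully discordant (0.132%). These measures use the same reads and are not independent.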

How the results depend on the processing

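The 3050 shared strand differences became 1165 with at least 20 reads per strand, 17 without site CpGs and 88 without sites of 51- or 52-base fragments, an alternative chosen after seeing the data. Fewer members are tested in each of these. The group calls rose from 0 to 1450 (P-generation) and 547 (F3-generation) without a dispersion term, and to 15 in the P-generation when C8 was also left out, the latter chosen after seeing the data. The nearer-strand difference inside fragments passed 0.05 with at least 20 reads per strand (0.0125 points). The difference in discordant share in the F3-generation turned negative without site CpGs (-0.00350), without members with a shared difference (-0.00345), without sites of 51- or 52-base fragments (-0.00358) and when thinned to 10 reads (-0.00538). The cause was not tested. Leaving out 1 sample at a time, the excess strand SD difference ran from -4.22 to 0.810 in the P-generation and from -1.32 to 0.0554 in the F3-generation, and at methylated CpGs from -9.27 to 4.32 and from -4.38 to -0.103. Without site CpGs and C8 together, chosen after seeing the data, the P-generation difference was 2.18. The excess of sites over CpGs inside fragments fell from 15.8 to 3.44 without members with a shared difference. Where 1 vehicle animal is left, its spread is assumed to be that of the others. The values of the named CpGs kept their direction under all alternatives in which they were tested, and 366 of 368 stayed called. The exceptions both came with thinning to 10 reads. They were the chromosome 5 CpG inside a fragment (32 points, q = 0.402, quasi-binomial F test) and the site nearest to Syt12 (97 points, q = 0.0661, quasi-binomial F test). No paired analysis was possible because the groups compared share no replicate numbers. With 2 against 3 animals, no permutation p can fall below 0.1.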
